A study of Mus musculus with 56 samples.

Results

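The 6 genes described here, *Ccr7*, *S1pr1*, *S1pr4*, *Klf2*, *Klf3* and *Cd69*, were grouped as genes of lymph node homing and retention. They were taken by symbol from the 55359 gene rows of a count table of sorted T cells, and all 6 passed the filter on low counts that left 19657 genes for testing. Lymphocytes enter lymph nodes from blood, where the chemokine receptor CCR7 recognises ligands displayed on high endothelial venules. They leave along a gradient of sphingosine-1-phosphate (S1P), sensed mainly by the receptor S1PR1. KLF2, a zinc-finger transcription factor of quiescent T cells, activates *S1pr1*, while KLF3 is a related factor that mostly represses transcription. CD69 is a membrane protein that appears on stimulation, binds S1PR1 and removes it from the cell surface, which keeps the cell in the node.

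All groups were CD8 T cells of C57BL/6 female mice that bound OVA:Kb tetramers (TFGS, fetus- or graft-specific T cells), taken from spleen and pooled lymph nodes and sorted at 200 cells per library. Naive mice (n = 3) had neither graft nor pregnancy, and Sensitized mice (n = 4) had rejected a skin graft that carried the 2W-OVA antigen. N+P mice had carried a semi-allogeneic pregnancy fathered by a 2W-OVA.BALB/c male, and S+P mice had been grafted first and mated afterwards. Post-partum cells were sorted by 2 surface proteins, so that the PD1-negative subsets are N+P C1 (n = 3) and S+P C4 (n = 6), the subsets positive for PD1 and CD73 are N+P C5 (n = 3) and S+P C5 (n = 6), and the subset positive for PD1 but not CD73 is S+P C7 (n = 5). Naive and Sensitized cells were not split by these proteins. Graft recipients were sampled at least 30 days after grafting and mothers shortly after delivery. Cell suspensions came from individual mice, and whether a replicate number marks the same mouse in different subsets is not stated, so counts of pairs below are of subsets with the same number. Pair counts and groups without overlap are given as description only. The share of all genes with the same pair counts or gaps is not given, and in groups of 3 samples many genes can show them. The gates used none of the 6 genes.

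Sample totals ranged from 15547934 to 54809406 counts. 1 library appeared with the same counts in Naive and S+P C4 and was left out of both, and 2 nearly identical S+P C7 libraries of replicates 1 and 2 were averaged into 1 sample. Replicates 2 and 3 of S+P C4 had 8002 and 7436 detected genes and replicate 3 of S+P C7 had 7879. These 3 were under the minimum of 9000 that the other 27 samples passed. EdgeR calls and orders of means that change without these 3 samples are given both ways below. So are counts of the 6 genes at an unadjusted p under 0.05. Pair counts, and overlaps of groups unless stated, are given with all samples, and some of them change without these 3. The 6 CD8 T cell markers summed to 4489.5 to 8787 counts per 1000000 (CPM), while the 5 B cell markers reached 62.8 CPM, and the 2 markers of CD4 T cells 4.45 CPM. The 2 natural killer cell markers summed to 53.3 to 126 CPM in Sensitized and at most 0.0823 CPM in Naive samples, with a maximum of 328 CPM in S+P C7 replicate 3, and the 7 myeloid and dendritic markers reached 332 CPM in 1 Sensitized sample. The 5 erythroid and platelet markers reached 16708 CPM in S+P C7 replicate 3, against a median of 1.46 CPM over all samples. The 4 stromal and endothelial markers summed to 93.3 to 158 CPM in Naive against 3.5 to 42.6 CPM in Sensitized, and to 23.2 to 140.5 CPM in S+P C5 against at most 21.5 CPM in S+P C4. Nearly all of it was *Pecam1*, while *Cdh5*, *Col1a1* and *Pdgfrb* were at 0 in 27, 22 and 26 of the 30 samples. The part of these markers in the results was not tested.

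Per kilobase of the canonical transcript, the mean level over all 30 samples was highest for *Cd69* (527 CPM per kb), then *Klf2* (214), *Ccr7* (202), *S1pr1* (166), *S1pr4* (54.6) and *Klf3* (51.4). This order depends on the groups pooled, since *Ccr7* had a mean of 633 CPM per kb in Naive, above *Klf2* at 254, and of 27.4 in S+P C7, the lowest of the 6 genes there. By mean CPM, *S1pr4* stood above 94.3% and *Cd69* above 99.5% of the genes tested. These are bulk samples, so fewer cells with a transcript and less transcript per cell cannot be told apart.

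The main test was the quasi-likelihood test of edgeR, and p values were adjusted by Benjamini-Hochberg over the 19657 genes. A gene was called when its adjusted p was below 0.1 and its log2 fold change was beyond 0.9 in either direction. With all 30 samples, 0 of the 6 genes were called in any of the 12 comparisons made. Few genes of any kind were: 0.153% for Sensitized against Naive, 0.0712% for S+P C5 against Sensitized and 0.0407% for N+P C5 against Naive. For S+P C7 against Sensitized and for S+P C5 against S+P C4 it was 0.0305%. For the interaction, which is S+P C5 against Sensitized minus N+P C5 against Naive, it was 0.0254%. The share was 0.00509% for N+P C5 against N+P C1, S+P C4 against Sensitized and S+P C7 against S+P C4, and 0% for N+P C1 against Naive, S+P C7 against S+P C5 and S+P C5 against N+P C5. Without the 3 samples of few genes, *Ccr7* was called lower in Sensitized than in Naive, in S+P C5 and S+P C7 than in Sensitized, and in S+P C5 than in N+P C5, and *S1pr1* was called lower in S+P C5 than in Sensitized. That is 1 of 6 genes where 0.0614% of all genes were called lower (Sensitized against Naive), 2 of 6 where 0.471% were (S+P C5 against Sensitized), 1 of 6 where 0.159% were (S+P C7 against Sensitized) and 1 of 6 where 0.0563% were (S+P C5 against N+P C5).

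DESeq2, a count test with another estimate of the spread, called more of these 6 genes and more of all genes. With all 30 samples it called *Ccr7*, *S1pr1*, *Klf2* and *Klf3* lower in S+P C5 than in S+P C4, with adjusted p values of 0.0273, 0.0153, 0.00195 and 0.000495, where 1.99% of all genes with an adjusted p were called lower. It called 2 of 6 (*Ccr7* and *Klf2*) lower in S+P C7 than in S+P C4, beside 1.68% of all genes. It called 1 of 6 lower in S+P C5 than in Sensitized (*S1pr1*, adjusted p = 0.00371, beside 2.25%), in S+P C7 than in Sensitized (*Ccr7*, adjusted p = 0.0483, beside 0.888%) and in S+P C5 than in N+P C5 (*Ccr7*, adjusted p = 0.0456, beside 0.723%). DESeq2 was not run without the 3 samples of few genes. In edgeR, the *Ccr7* log2 difference of S+P C5 against S+P C4 went from -2.02 to -0.78 without them. That of S+P C7 against S+P C4 went from -2.69 to -2.28. The calls of the 6 genes thus depended on the test used, and the values below are from edgeR.

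**Figure D1:**
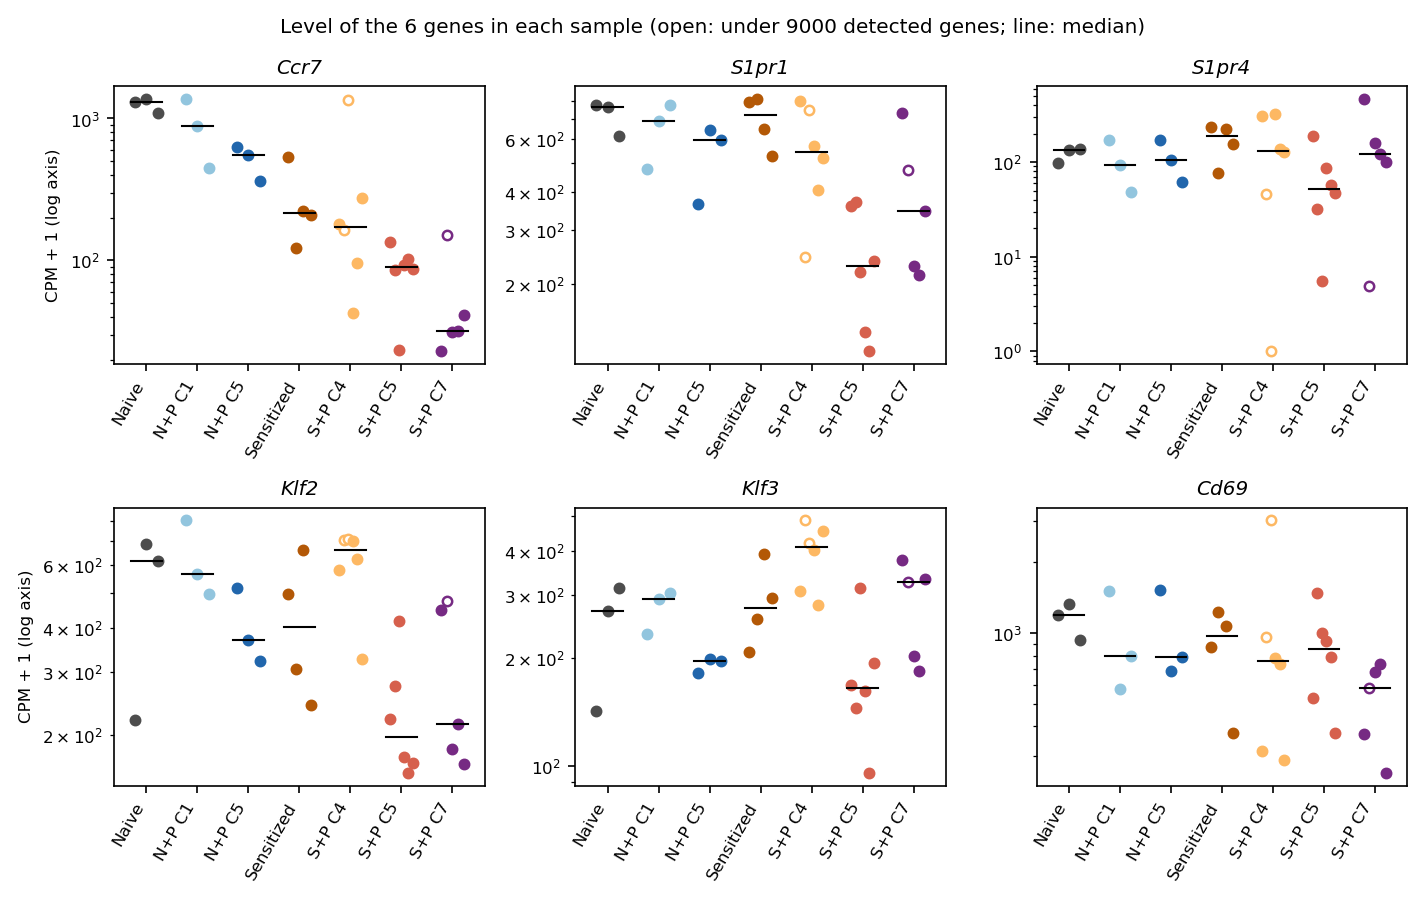
Level of each gene in each of the 30 samples, as CPM + 1 on a log axis, by group. Points are samples, open points are the 3 samples with under 9000 detected genes and lines are group medians. Ccr7 runs from 1315 CPM at the median in Naive to 31 CPM in S+P C7, and the highest S+P C4 point for Ccr7 and for Cd69 is the same open sample.

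*Ccr7* (ENSMUSG00000037944; GRCm39 chromosome 11, 99035022 to 99045911, minus strand) encodes the receptor for the chemokines CCL19 and CCL21. Its group medians ran from 1315 CPM in Naive to 31 CPM in S+P C7, the widest range of the 6 genes, and with all 30 samples it was called in none of the 12 comparisons by edgeR. The Naive samples held 1315, 1363 and 1095 CPM. The Sensitized samples held 531, 121, 223 and 209 CPM. Every Sensitized sample sat below every Naive sample. The difference was -2.22 ± 0.77 on the log2 scale (SE), 4.65-fold, with an adjusted p of 0.627 in edgeR's quasi-likelihood test, and -2.23 ± 0.51 with an adjusted p of 0.0363 without the 3 samples of few genes, none of which is in either group.

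In N+P C1, *Ccr7* was at 1379, 888 and 446 CPM. This spread took in the whole Naive range and reached down into the N+P C5 range. N+P C5 held 625, 552 and 361 CPM, below the Naive samples without overlap. N+P C5 was at -1.29 ± 0.83 against Naive (log2, SE) with an adjusted p of 0.839 in edgeR, and *Ccr7* was lower in N+P C5 than in N+P C1 in 3 of 3 pairs.

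S+P C4 held 41.4 (lowest), 171 (median) and 1357 (highest) CPM. The highest value came from replicate 3, 1 of the samples with few genes, and the next highest was 275 CPM. S+P C5 held 22.3 (lowest), 88.4 (median) and 135 (highest) CPM. S+P C7 held 21.8, 149, 30.3, 31 and 40.5 CPM, in the order of the averaged sample and replicates 3 to 6. All S+P C5 samples were below all N+P C5 samples, and the S+P C7 samples other than replicate 3 were below all Sensitized samples.

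Against Sensitized, *Ccr7* was at -1.65 ± 0.64 in S+P C5 (log2, SE; adjusted p = 0.277, edgeR) and at -2.31 ± 0.68 in S+P C7 (adjusted p = 0.473). Without the 3 samples these became -1.62 ± 0.42 (adjusted p = 0.0737, edgeR) and -3.12 ± 0.50 (adjusted p = 0.00299). S+P C5 was at -2.57 ± 0.68 against N+P C5, which is 5.93-fold lower, with an adjusted p of 0.809 in edgeR, and -2.58 ± 0.45 with 0.0232 without those samples. The interaction, S+P C5 against Sensitized minus N+P C5 against Naive, was -0.35 ± 1.04 (adjusted p = 1, edgeR). A larger difference in sensitized mice was thus not shown for this gene. Both differences set gated against ungated cells, so pregnancy and the gate cannot be told apart. Against S+P C4, S+P C5 was at -2.02 ± 0.60 (adjusted p = 0.297, edgeR), but at -0.81 without S+P C4 replicate 3 alone and at -0.78 ± 0.42 without all 3 samples. S+P C7 against S+P C4 moved likewise from -2.69 ± 0.66 to -1.52 without that 1 sample, and *Ccr7* was lower in S+P C7 than in S+P C4 in 4 of 4 pairs. *Ccr7* shares 133 exonic bases with a lncRNA gene on the other strand, *Gm57398*.

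*S1pr1* (ENSMUSG00000045092; GRCm39 chromosome 3, 115504071 to 115508721, minus strand) encodes the receptor that draws T cells out of lymph nodes towards S1P. Its lowest levels were in S+P C5, below every Sensitized sample. Naive samples held 776, 761 and 614 CPM. Sensitized samples held 793, 813, 646 and 526 CPM. These 2 groups overlapped and differed by -0.05 ± 0.42 (log2, SE; adjusted p = 1, edgeR), in contrast to *Ccr7*, although the contrast between the 2 genes was not tested.

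N+P C1 held 476, 686 and 776 CPM. N+P C5 held 366, 642 and 596 CPM. Both overlapped Naive, and N+P C5 was at -0.42 ± 0.45 against it (log2, SE; adjusted p = 1, edgeR). S+P C4 held 244 (lowest), 544 (median) and 796 (highest) CPM. S+P C5 held 119 (lowest), 227 (median) and 369 (highest) CPM. S+P C7 held 731, 473, 228, 212 and 345 CPM, in the order of the averaged sample and replicates 3 to 6. S+P C7 thus reached into both the S+P C5 and the Sensitized ranges, and the lowest S+P C4 value was replicate 2, a sample with few genes.

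S+P C5 was at -1.53 ± 0.35 against Sensitized (log2, SE), 2.89-fold lower, with an unadjusted p of 0.000133 and an adjusted p of 0.152 in edgeR. Without the 3 samples of few genes the estimate was -1.51 ± 0.31 with an adjusted p of 0.0139, and without S+P C5 replicate 1 alone the adjusted p was 0.0949. Against S+P C4, S+P C5 was at -1.19 ± 0.32 (adjusted p = 0.297, edgeR), and lower in 5 of 6 pairs. S+P C7 was at 0.73 ± 0.33 against S+P C5 (adjusted p = 0.337, edgeR), and higher in all 4 pairs. The interaction, S+P C5 against Sensitized minus N+P C5 against Naive, was -1.11 ± 0.58 with an unadjusted p of 0.0628 and an adjusted p of 0.836 in edgeR. *S1pr1* shares 50 exonic bases with the lncRNA gene *Gm9889* on the other strand.

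*S1pr4* (ENSMUSG00000044199; GRCm39 chromosome 10, 81333581 to 81335966, minus strand) encodes another S1P receptor of blood and lymphoid cells. Its groups all overlapped, and its spread within the S+P subsets was wide. Naive samples held 97.3, 133 and 138 CPM. Sensitized samples held 236, 75, 224 and 156 CPM, and N+P C1 and N+P C5 samples ranged from 47.5 to 172 and from 61.2 to 169 CPM. All 4 groups overlapped.

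S+P C4 ranged from 0 in replicate 3 to 325 CPM, with a median of 131. The count of 0 allows a level of up to 0.298 CPM (3 counts), a limit for counting error only. S+P C5 held 4.6 (lowest), 51 (median) and 188 (highest) CPM, and S+P C7 held 468, 3.92, 158, 119.6 and 99.6 CPM. In replicate 3 all 3 S+P subsets were at 4.6 CPM or less, and its S+P C5 sample was not among those with few genes. S+P C5 was at -1.33 ± 0.96 against Sensitized and at -1.19 ± 0.88 against S+P C4 (log2, SE), with adjusted p values of 0.768 and 0.684 in edgeR, and lower than S+P C4 in 5 of 6 pairs. With the 3 samples of few genes left out, the second became -1.71 ± 0.57 with an adjusted p of 0.321 in edgeR, and S+P C7 was at 1.61 ± 0.57 against S+P C5 (adjusted p = 0.279, edgeR). Without them S+P C4 held 224 ± 108 CPM (SD, n = 4).

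*Klf2* (ENSMUSG00000055148; GRCm39 chromosome 8, 73072726 to 73075502, plus strand, within an intron of *Eps15l1* on the other strand) and *Klf3* (ENSMUSG00000029178; GRCm39 chromosome 5, 64959875 to 64990261, plus strand) were both lower in S+P C5 than in S+P C4 in all 6 pairs of subsets with the same replicate number. The sequences upstream of their RefSeq starts, and upstream of that of *S1pr4*, are shown because only these 3 of the 6 genes had an entry. CACCC was searched because KLF factors bind such elements. The sequences come from RefSeq promoter windows (GRCm38.p6) that matched GRCm39 exactly once each. Only the stretch of the 250 upstream bases that lies outside annotated exons of genes other than lncRNAs is printed, 5′ to 3′ on the gene's strand, and capitals mark CACCC on either strand (GGGTG on the printed one). The stretches lie at chr8:73072656-73072725 (*Klf2*), chr5:64960614-64960706 (*Klf3*) and chr10:81335972-81336100 (*S1pr4*) of GRCm39. The RefSeq start of *Klf3* used here lies downstream of the start of the gene span given above, so its stretch is inside that span.
Klf2: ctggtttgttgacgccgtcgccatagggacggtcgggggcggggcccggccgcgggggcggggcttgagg
Klf3: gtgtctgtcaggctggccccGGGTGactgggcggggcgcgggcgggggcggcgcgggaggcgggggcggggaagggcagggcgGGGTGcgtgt
S1pr4: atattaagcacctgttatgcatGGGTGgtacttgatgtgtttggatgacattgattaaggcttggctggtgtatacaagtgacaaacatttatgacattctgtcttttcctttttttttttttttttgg

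Over the full 250 bases, CACCC occurred 5 times upstream of *Klf3* and 1 time each upstream of *Klf2* and *S1pr4*, and it occurs in 52.0% of all 32851 RefSeq promoter windows of that length. The FOXO element TGTTTAC (3.17% of all windows) and the AP-1 element TGANTCA (6.75%), also searched on both strands, did not match in any of the 3 windows. None of the 3 motifs overlaps another in the letters printed. The upstream windows of *Klf2* and *Klf3* held 71.2% and 78.4% G and C, and that of *S1pr4* 38.8%, beside a median of 52.4% over all windows. Ccr7, S1pr1 and Cd69 had no entry.

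KLF2 keeps T cells quiescent and recirculating. Naive samples held 219, 688 and 614 CPM of *Klf2*. Sensitized samples held 497, 304, 660.3 and 242 CPM. Neither group stood apart from the other (-0.25 ± 0.44, log2, SE; adjusted p = 1, edgeR). N+P C1 held 803, 564 and 496 CPM, and N+P C5 held 518, 369 and 321 CPM. N+P C5 was lower than N+P C1 in 3 of 3 pairs, with differences of -0.63 to -0.61 on the log2(CPM + 1) scale, and the edgeR difference was -0.63 ± 0.47 (adjusted p = 1).

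S+P C4 held 325 (lowest), 662 (median) and 711 (highest) CPM of *Klf2*. S+P C5 held 155 (lowest), 197 (median) and 418 (highest) CPM. The ranges met only through the lowest S+P C4 sample, replicate 6, and the highest S+P C5 sample, replicate 3. S+P C7 held 449, 476, 181, 214 and 164 CPM, in the order of the averaged sample and replicates 3 to 6. *Klf2* in S+P C5 was at -1.37 ± 0.34 against S+P C4 (log2, SE), 2.59-fold lower, with an unadjusted p of 0.00032 and an adjusted p of 0.262 in edgeR, and lower in 6 of 6 pairs. S+P C7 was at -1.03 ± 0.36 against S+P C4 (adjusted p = 0.244, edgeR) and lower in 4 of 4 pairs. Against Sensitized, S+P C5 was at -0.86 ± 0.37 and S+P C4 at 0.51 ± 0.38 (adjusted p = 0.302 and 0.756, edgeR).

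*Klf3* followed *Klf2* in this comparison. S+P C4 held 281 (lowest), 409.9 (median) and 486 (highest) CPM of *Klf3*, and S+P C5 held 94.7 (lowest), 165 (median) and 315 (highest) CPM. Only replicate 3 of S+P C5 reached the S+P C4 range. The difference was -1.13 ± 0.29 (log2, SE), 2.18-fold, with an unadjusted p of 0.000498 and an adjusted p of 0.297 in edgeR, and S+P C5 was lower in 6 of 6 pairs. S+P C7 held 376, 326, 202, 183 and 332 CPM, and was at 0.66 ± 0.30 against S+P C5 (adjusted p = 0.329, edgeR), higher in all 4 pairs.

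In the groups without a graft, *Klf3* was at 142, 271 and 314 CPM in Naive, 232, 291 and 303 CPM in N+P C1 and 181, 198 and 196 CPM in N+P C5 samples. The N+P C5 samples lay below the N+P C1 samples without overlap, at -0.52 ± 0.41 (log2, SE; adjusted p = 1, edgeR). Sensitized samples held 208, 257, 391 and 293 CPM. S+P C5 was at -0.68 ± 0.32 against them (adjusted p = 0.349, edgeR). *Klf3* shares 643 exonic bases with the lncRNA gene *Gm20033* on the other strand, and the strand setting of the counting is not given in the sources used here, so their reads cannot be told apart.

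**Figure D2:**
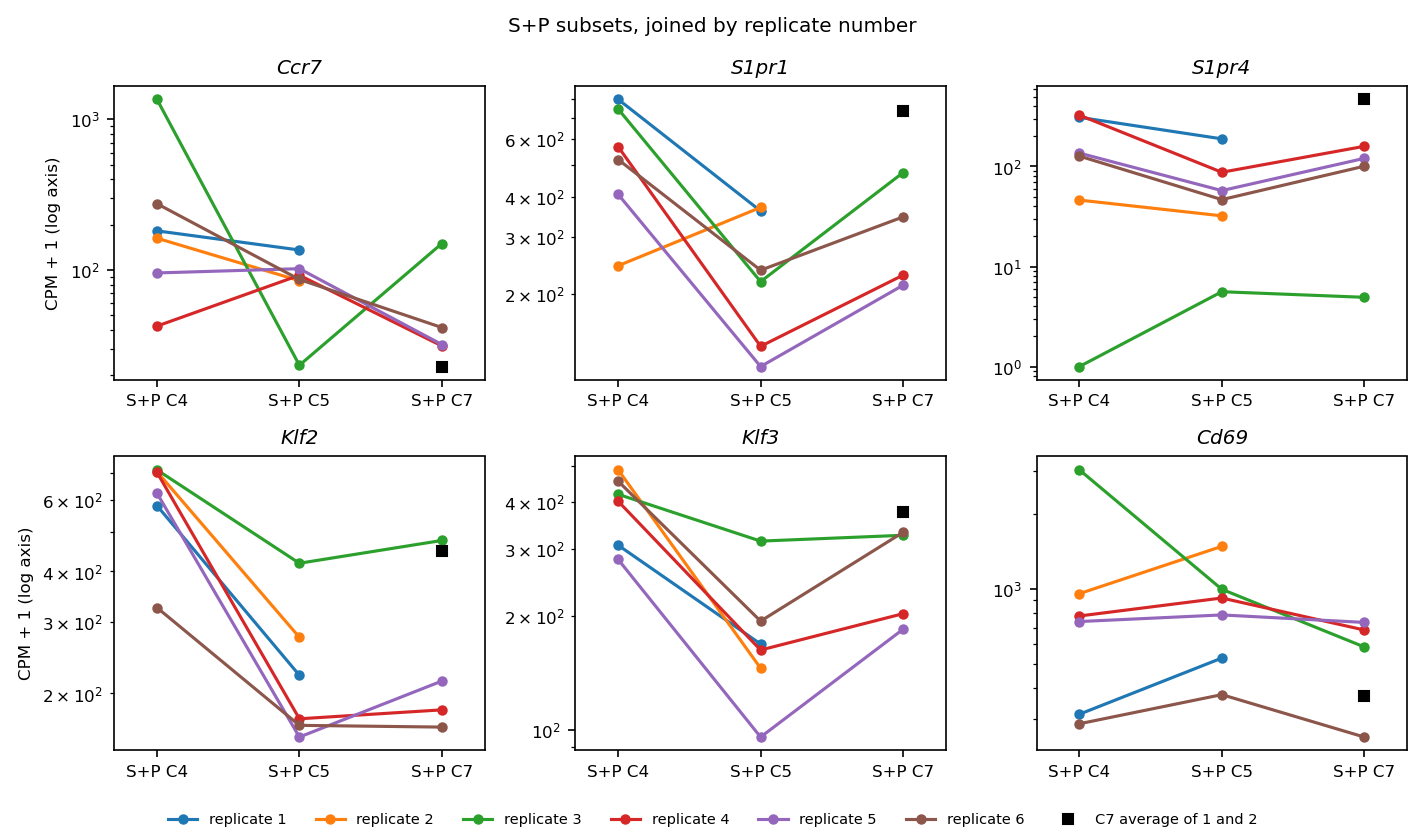
Levels of the 6 genes (CPM + 1, log axis) in the 3 S+P subsets (C4, C5, C7), with lines joining subsets with the same replicate number and a square for the averaged S+P C7 sample. Klf2 and Klf3 are lower in S+P C5 than in S+P C4 along all 6 lines, S1pr1 along 5 and Ccr7 along 4, and Cd69 along 1. These counts include replicates 2 and 3 of S+P C4, which had under 9000 detected genes.

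*Cd69* (ENSMUSG00000030156; GRCm39 chromosome 6, 129244288 to 129252399, minus strand) encodes the early activation antigen that opposes S1PR1. Its group medians differed least of the 6 genes, and with all 30 samples Naive and S+P C7 were the 1 pair of groups that did not overlap. Without the 3 samples of few genes, the highest S+P C4 sample (778 CPM) was also below the lowest Naive sample (931 CPM). Naive samples held 1188, 1325 and 931 CPM, and Sensitized samples 867, 1228, 1069 and 372 CPM. N+P C1 held 1505, 577 and 793 CPM, and N+P C5 1528, 688 and 791 CPM. The 4 groups were interleaved, and N+P C5 was at -0.20 ± 0.61 against Naive (log2, SE; adjusted p = 1, edgeR).

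S+P C4 held 285 (lowest), 759 (median) and 3026 (highest) CPM of *Cd69*. The highest value was again replicate 3, and the next was 958 CPM. S+P C5 held 374 (lowest), 853 (median) and 1487 (highest) CPM, and S+P C7 held 371, 583, 683, 733 and 252 CPM. *Cd69* in S+P C5 was at -0.26 ± 0.43 against S+P C4 and at -0.06 ± 0.48 against Sensitized (log2, SE; adjusted p = 0.956 and 1, edgeR). Without the 3 samples of few genes the first became 0.67 ± 0.40 (adjusted p = 0.49, edgeR), and *Cd69* was lower in S+P C5 than in S+P C4 in 1 of 6 pairs. S+P C7 was at -0.95 ± 0.46 against S+P C4 (adjusted p = 0.302, edgeR) and at -0.08 ± 0.43 without those samples. The S+P C7 level was lower than that of S+P C5 in 4 of 4 pairs, at -0.69 ± 0.46 (adjusted p = 0.734, edgeR).

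Set side by side, 4 of the 6 genes (*Ccr7*, *S1pr1*, *Klf2* and *Klf3*) were lower in S+P C5 than in Sensitized at an unadjusted p under 0.05, as were 7.72% of all genes tested. With all 30 samples the same 4 were lower in S+P C5 than in S+P C4, as were 5.7% of all genes. Both comparisons share the S+P C5 samples. The median log2 difference of the 6 genes was -1.10 in the first, beside -0.01 over all genes, and -1.19 in the second, beside 0.11. For S+P C7 against S+P C4, 3 of 6 (*Ccr7*, *Klf2* and *Cd69*) were lower at that level, with 3.52% of all genes, and for S+P C7 against Sensitized 2 of 6 (*Ccr7* and *S1pr1*) were, with 2.84%. 1 of 6 was lower in Sensitized than in Naive (*Ccr7*, with 3.98% of all genes), and 2 of 6 in S+P C5 than in N+P C5 (*Ccr7* and *S1pr1*, with 3.73%). 2 of 6 were higher in S+P C7 than in S+P C5 (*S1pr1* and *Klf3*), where 10.1% of all genes were. In N+P C5 against Naive all 6 estimates were below 0, from -1.29 to -0.14, and 0 had an unadjusted p under 0.05.

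These counts changed when the 3 samples of few genes were left out. *S1pr4* joined the 4 genes lower in S+P C5 than in Sensitized (5 of 6, with 9.71% of all genes), and replaced *Ccr7* among the 4 lower in S+P C5 than in S+P C4 (6.55% of all genes). *Cd69* left the genes lower in S+P C7 than in S+P C4 (2 of 6, with 2.42%). *Ccr7* was lower in S+P C7 than in S+P C5 (1 of 6, with 3.27%), where *S1pr4* and *Klf3* were higher (2 of 6, with 10.4%) and *S1pr1* no longer passed. *Klf2* joined *Ccr7* and *S1pr1* as lower in S+P C5 than in N+P C5 (3 of 6, with 4.59%), *Ccr7* was lower in N+P C5 than in Naive (1 of 6, with 2.81%), and the interaction was below 0 for *S1pr1* (1 of 6, with 4.48%). For Sensitized against Naive (*Ccr7*, with 5.04% of all genes) and S+P C7 against Sensitized (*Ccr7* and *S1pr1*, with 3.6%) the genes were as before.

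**Figure D3:**
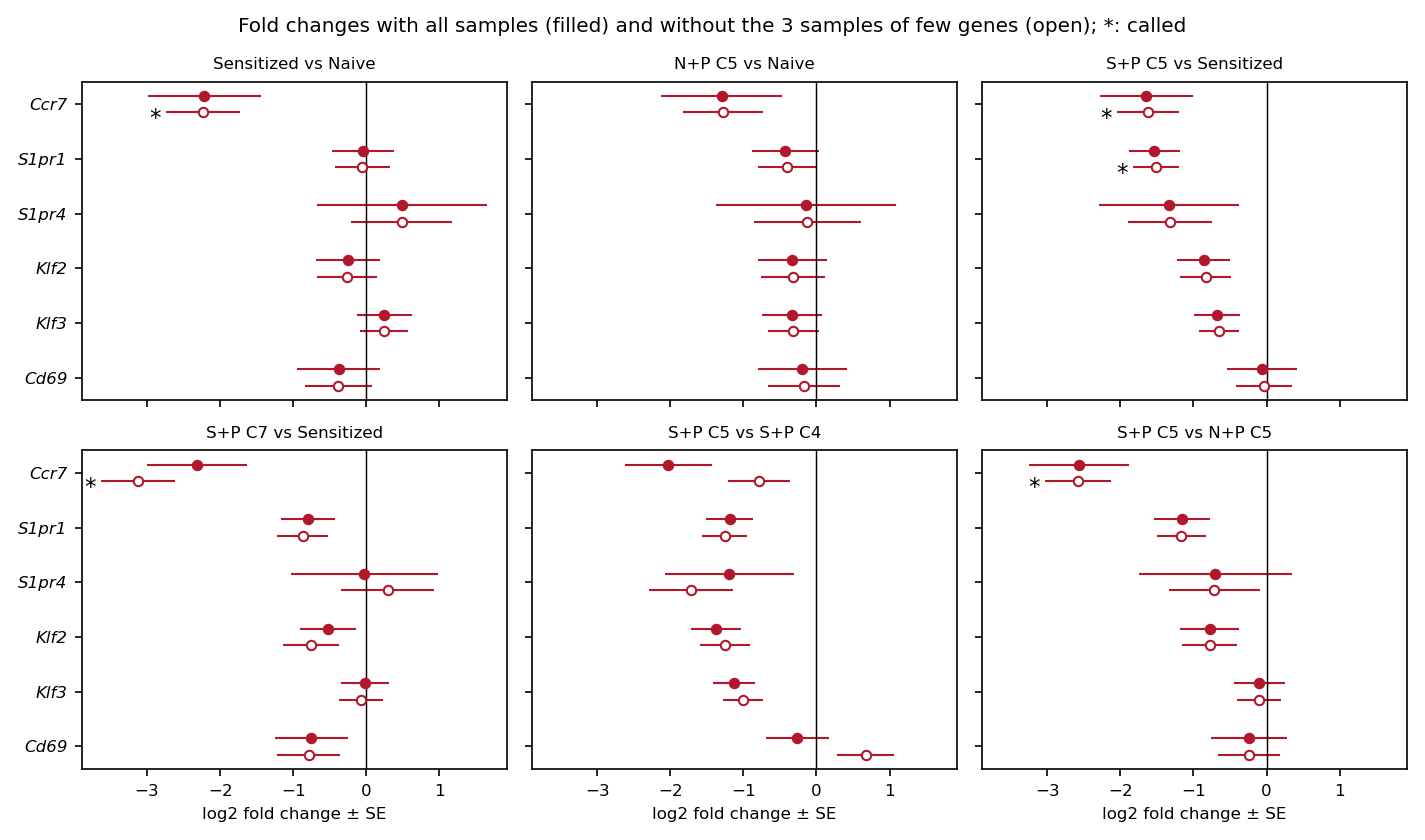
Log2 fold changes of the 6 genes with standard errors from edgeR in 6 comparisons, with all 30 samples (filled) and without the 3 samples with under 9000 detected genes (open). Asterisks mark the 5 estimates called at an adjusted p under 0.1, all of them open points and all for Ccr7 or S1pr1.

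By mean CPM, *Ccr7* ran from Naive at 1258 ± 143 CPM (SD, n = 3) through N+P C1, N+P C5, S+P C4, Sensitized and S+P C5 to S+P C7 at 54.5 ± 53.1 CPM (SD, n = 5). *S1pr1* ran from Naive at 717 ± 89.9 CPM (SD, n = 3) through Sensitized, N+P C1, S+P C4, N+P C5 and S+P C7 to S+P C5 at 239.8 ± 107 CPM (SD, n = 6). *Klf2* ran from N+P C1 at 621 ± 161 CPM (SD, n = 3) through S+P C4, Naive, Sensitized, N+P C5 and S+P C7 to S+P C5 at 234 ± 100.3 CPM (SD, n = 6), and *Klf3* from S+P C4 at 391 ± 81.2 CPM (SD, n = 6) through Sensitized, S+P C7, N+P C1, Naive and N+P C5 to S+P C5 at 179 ± 73.9 CPM (SD, n = 6). *S1pr4* ran from Sensitized at 173 ± 74.1 CPM (SD, n = 4) through S+P C7, S+P C4, Naive, N+P C5 and N+P C1 to S+P C5 at 68.7 ± 64.4 CPM (SD, n = 6), and *Cd69* from Naive at 1148 ± 200.3 CPM (SD, n = 3) through S+P C4, N+P C5, N+P C1, Sensitized and S+P C5 to S+P C7 at 525 ± 206 CPM (SD, n = 5). In all 6 orders every neighbouring pair of groups overlapped. The place of S+P C4 rested on its samples of few genes, without which its mean was 148 ± 102 CPM for *Ccr7* and 529 ± 266 CPM for *Cd69* (SD, n = 4). It then came below Sensitized for *Ccr7*, and last but for S+P C7 for *Cd69*. For *S1pr4*, S+P C4 and S+P C7 then stood above Sensitized, with S+P C7 at 211 ± 173 CPM (n = 4), for *Klf3* N+P C1 came above S+P C7, and the orders of *S1pr1* and *Klf2* were the same.

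Other genes of these pathways were read from 7 lists of 73 genes, of which 66 were tested. Of these, 1 was called in any comparison with all samples. *Itga4*, which encodes an integrin subunit used to enter inflamed tissue, was higher in Sensitized (517 ± 205 CPM, SD, n = 4) than in Naive samples (133 ± 52.7 CPM, n = 3), at 1.96 ± 0.44 with an adjusted p of 0.0826 in edgeR. Of the 8 homing and adhesion genes, 3 were higher in Sensitized than in Naive at an unadjusted p under 0.05, beside 3.84% of all genes, and the median difference of the 8 was 0.74 on the log2 scale beside 0.04. *Itgal* and *Itgb2*, the subunits of the integrin LFA-1, were at 0.97 ± 0.29 and 1.38 ± 0.35 (adjusted p = 0.536 and 0.213, edgeR).

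Of 11 tested genes of the KLF family besides *Klf2* and *Klf3*, 2 were lower and 0 higher in S+P C5 than in Sensitized at an unadjusted p under 0.05, with a list median of -0.14 on the log2 scale. In this comparison 7.72% of all genes were lower and 5.26% higher at that level, with a median of -0.01. *Klf13*, a factor that promotes chemokine expression in T cells, had 625 ± 84.9 CPM in Sensitized and 299 ± 84.5 CPM in S+P C5 samples (SD, n = 4 and 6), at -1.07 ± 0.26 (adjusted p = 0.198, edgeR). *Klf7* was at -1.67 ± 0.60 and *Klf6* at -0.87 ± 0.48 in the same comparison (edgeR, neither called, with an adjusted p of 0.277 for *Klf7*). Of 9 factors upstream of *Klf2* and *Ccr7*, 1 was lower at that level, *Pik3ip1*, an inhibitor of PI3K signalling, at -1.09 ± 0.53 (adjusted p = 0.381, edgeR). *Foxo3* and *Foxp1*, forkhead transcription factors, were at -1.18 ± 0.79 and -0.55 ± 0.32 (adjusted p = 0.688 and 0.54, edgeR).

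Of the 7 tested genes for other S1P receptors and S1P synthesis and transport, 0 were lower or higher in S+P C5 than in Sensitized at an unadjusted p under 0.05. *S1pr5*, an S1P receptor of effector and natural killer cells, was at -3.01 ± 1.25 in S+P C5 against S+P C4 (adjusted p = 0.3, edgeR). Of 12 signalling genes downstream of CCR7 and S1PR1, 1 was higher, *Rap1a*, a small GTPase of integrin activation, at 1.15 ± 0.41 in S+P C5 against Sensitized (adjusted p = 0.277, edgeR). Its close relative *Rap1b* was at -0.44 ± 0.36 (adjusted p = 0.878, edgeR).

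Of 9 genes of tissue residence, 1 was lower and 1 higher in S+P C5 than in Sensitized at an unadjusted p under 0.05, with a list median of -1.21. *Cxcr6*, a chemokine receptor of resident and effector T cells, held 421 to 534 CPM in Sensitized and 19.6 to 249 CPM in S+P C5 samples, without overlap, at -2.01 ± 0.49 (adjusted p = 0.196, edgeR). *Rgs1*, which dampens signalling from chemokine receptors, was at 0.40 ± 0.49 (adjusted p = 1, edgeR). Of 10 immediate early genes, which are induced in the first minutes of stimulation as *Cd69* is soon after, 1 was lower and 0 were higher, *Btg2*, a growth-restraining gene, at -1.34 ± 0.36 (adjusted p = 0.277, edgeR).

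Without the 3 samples of few genes, 3 of the 66 genes were called in Sensitized against Naive, all higher (*Itga4*, *Itgal* and *Itgb2*), and 3 in N+P C5 against Naive, also higher (*Itga4*, *Itgal* and *Xcl1*). In S+P C5 against Sensitized 6 were called, *Cxcr6*, *Klf13*, *Klf7* and *Btg2* lower and *Rap1a* and *Xcl1* higher. In that comparison 0.471% of all genes were called lower. The share of all genes called higher is not given for these comparisons, nor the share called lower in S+P C5 against S+P C4. The counts of list genes called here are thus description only. Over the comparisons, 0 to 199 of all 19553 genes tested in this setting were called in either direction. *Xcl1*, a chemokine gene of activated CD8 T cells, was named after its values were seen. *Klf13* was the 1 gene of the lists called in S+P C5 against S+P C4, at -1.03 ± 0.21 (adjusted p = 0.0419, edgeR).

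**Figure D4:**
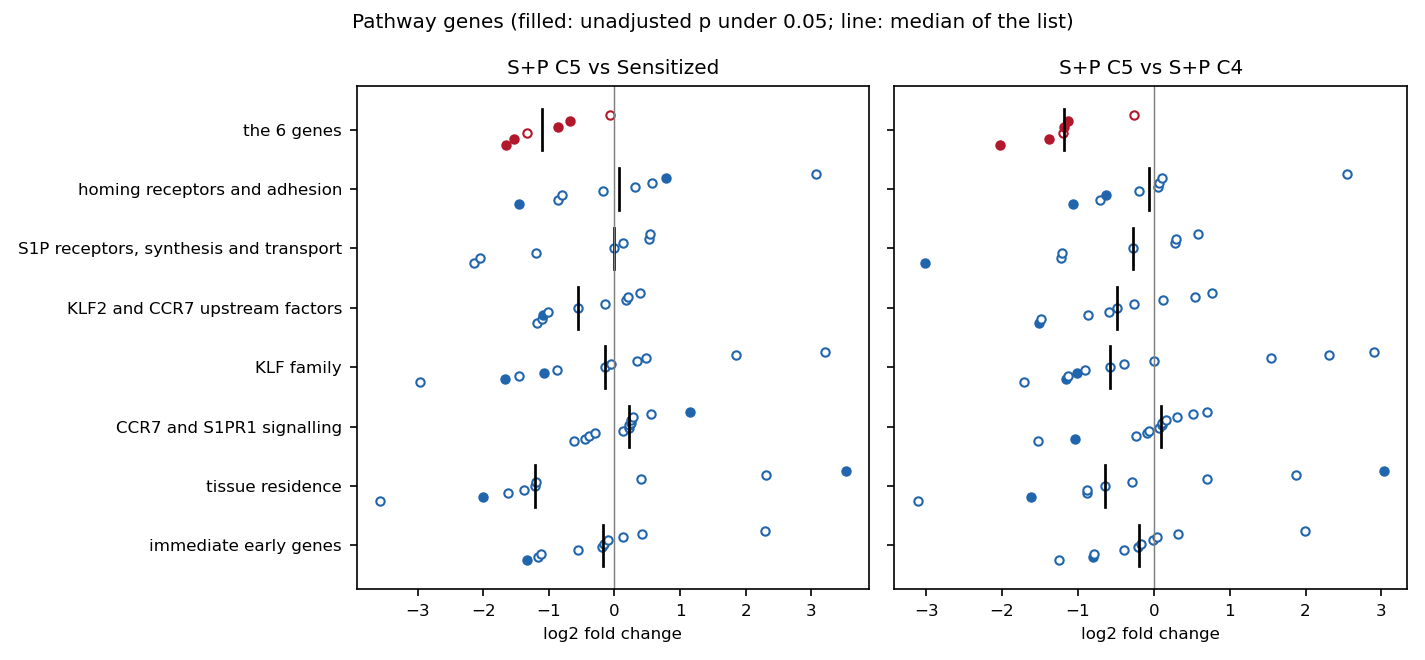
Log2 fold changes of the 6 genes (red) and of the 66 tested genes of 7 pathway lists (blue) in S+P C5 against Sensitized and against S+P C4. Filled points have an unadjusted p under 0.05 and vertical lines are list medians. The medians of the 6 genes are -1.10 and -1.19, and those of the 10 immediate early genes -0.18 and -0.19.

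Among 8264 genes with a mean of at least 10 CPM, the closest patterns over the 30 samples, by Pearson's r of log2(CPM + 1), were Gm43698 (r = 0.89), Igfbp4 (r = 0.86) and Rps6 (r = 0.86) for *Ccr7* and Txk (r = 0.85), Dnajc15 (r = 0.78) and Ifngr1 (r = 0.74) for *S1pr1*. Over the 27 samples with at least 9000 detected genes they were Ighm (an immunoglobulin constant gene, r = 0.91), Pde4b (r = 0.91) and Gm43698 (r = 0.91), and Dnajc15 (r = 0.86), Txk (r = 0.85) and Sh3gl1 (r = 0.82). *Gm43698* for *Ccr7* and *Txk* and *Dnajc15* for *S1pr1* were thus among the first 3 both times. *Klf2* was closest to Tsc22d3 (r = 0.76), Tmsb10b (r = 0.72) and Haao (r = 0.71) over 30 samples and to Vps37b (r = 0.82), Bcl9l (r = 0.77) and Tsc22d3 (r = 0.76) over 27. *Klf3* had Haao (r = 0.68), Phf20l1 (r = 0.66) and Prim2 (r = 0.63) and then Tmem71 (r = 0.88), Pitpnc1 (r = 0.78) and Pik3r5 (r = 0.76), with no gene in both. *S1pr4* had Necap2 (r = 0.92), Bin2 (r = 0.92) and Pea15a (r = 0.91) and then H2-Q6 (r = 0.91), H2-D1 (r = 0.91) and Ccnd3 (r = 0.91). *Cd69* had Rpl41 (r = 0.84), Gm10736 (r = 0.81) and Gm4332 (r = 0.81) and then Rpl41 (r = 0.83), Zfas1 (r = 0.81) and Rpl22 (r = 0.80), where *Gm10736* and *Gm4332* are processed pseudogenes that can take reads of their parent genes. *Klf2* and *Klf3* were at r = 0.62 with each other over the 30 samples, and *Klf2* and *S1pr1* at 0.57. These values describe samples that share groups and depth, and carry no test.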

How the data were processed

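RNA from 200 sorted T cells per library was amplified by SmartSeq2 and prepared with Nextera XT. The deposited table holds whole read counts per gene, which the authors made by trimming with cutadapt 3.4, aligning to GRCm39 with STAR 2.6.1b, dropping reads that mapped to several places and counting with featureCounts 2.0.1. The annotation release and strand setting are not given in the sources used here, and antisense partners cannot be separated. The 56 columns, of 6636532 to 32625243 counts, were summed by group and replicate into 30 samples. 1 column with the same counts in 2 groups was left out of both, and a pair of nearly identical S+P C7 columns was averaged into 1 sample.

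Genes were filtered with filterByExpr (minimum count 10), scaled by TMM and tested with edgeR 4.0.16 (R 4.3.3), all 7 groups entering 1 fit, with Benjamini-Hochberg adjustment and no replicate block. Counts per 1000000 (CPM) shown are TMM-scaled. Alternatives were DESeq2 1.42.0 (the tool of the study, on summed samples and on separate technical libraries), other scalings and filters, only the groups compared, all 56 columns, a replicate block, and samples left out. The code was tested on simulated data. Replicates are separate samples by their labels.

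The 6 genes and the pathway lists were chosen with earlier results of these data known. All 6 genes are given in every group, with at most 3 genes per pathway list, those of smallest adjusted p over the comparisons, besides *Xcl1*. The pathway gene counts without the 3 samples of few genes were added after seeing the data. Upstream sequences are from RefSeq.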

Additional observations from a re-analysis of the deposited data

Results flagged for a closer look

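Of the 24 sets of 4 to 6 samples examined (6 genes in 4 groups), 4 held 1 sample far from the rest of its group by Dixon's test, where chance gives about 1 in 20. *Ccr7* was at 1357 CPM in S+P C4 replicate 3, while the next sample of the group was at 275 CPM. *Cd69* was at 3026 CPM in the same sample, and the next was at 958 CPM. *Ccr7* was at 149 CPM in S+P C7 replicate 3, and the next was at 40.5 CPM. These 2 samples had 7436 and 7879 detected genes, 2 of the 3 samples with under 9000. *Klf2* was at 325 CPM in S+P C4 replicate 6, the lowest of its group, and the next lowest was at 580.4 CPM. That sample was not among those with few genes.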

How the results depend on the processing

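In edgeR, 0 of the 6 genes were called in any of the 12 comparisons with the RLE scaling, with the library size alone, with no filter on low counts, with an adjusted p under 0.05, with no minimum fold change and with the identical library kept in either group. Leaving out the 3 samples with under 9000 detected genes gave 1 call in Sensitized against Naive, 2 in S+P C5 against Sensitized, 1 in S+P C7 against Sensitized and 1 in S+P C5 against N+P C5. DESeq2 on summed samples gave 1, 1, 4, 2 and 1 calls in S+P C5 and S+P C7 against Sensitized, S+P C5 and S+P C7 against S+P C4 and S+P C5 against N+P C5, and DESeq2 on separate technical libraries gave 3, 1, 4, 2 and 3, and 1 in Sensitized against Naive. The separate fit took technical libraries of 1 replicate as independent samples, so its p values overstate the replication. Fitting only the groups compared gave 1 call in S+P C5 against Sensitized and 1 in Sensitized against Naive, keeping genes with a mean of at least 10 CPM gave 1 in S+P C5 against Sensitized, and keeping all 56 columns gave 1 in S+P C7 against S+P C4. Leaving out 1 replicate at a time gave 0 to 1 calls in S+P C5 against Sensitized, the 1 being without S+P C5 replicate 1. Over all genes, DESeq2 called 623 to 1102 per comparison on summed samples and 433 to 1019 on separate libraries, edgeR 0 to 30, and edgeR without the 3 samples 0 to 199. With only the groups compared, edgeR called 0 to 142 of the 11822 to 16335 genes tested. With a mean of at least 10 CPM it called 0 to 44 of 8297, and with all 56 columns 0 to 20 of 19851.

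Without the 3 samples, S+P C4 against Sensitized went from 0.38 to -0.84 for *Ccr7*, from 0.20 to -0.71 for *Cd69* and from -0.14 to 0.40 for *S1pr4*, while *S1pr4* went from 0.12 to -0.10 in S+P C7 against S+P C4 and from -0.03 to 0.29 in S+P C7 against Sensitized. The estimate for *Cd69* also changed sign under other settings. In S+P C5 against S+P C4 it was -0.26, and 0.18 with the library size alone, 0.034 with the replicate block and 0.67 without the 3 samples, and it ranged from -0.51 to 0.46 when 1 replicate at a time was left out, the highest being without S+P C4 replicate 3. In S+P C5 against Sensitized it was -0.06, and 0.040 with the library size alone, and it ranged from -0.31 to 0.14 when 1 replicate at a time was left out, being above 0 without S+P C5 replicate 1 (0.046) or 6 (0.096) and without Sensitized replicate 2 (0.14) or 3 (0.054). None of these was called, and the cause was not tested. The library size alone moved the median of all genes in S+P C5 against S+P C4 from 0.11 to 0.25 on the log2 scale.

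Subsets with the same replicate number deviated together only weakly, with a mean correlation of 0.109 between the C4 and C5 subsets of S+P beside -0.0174 for other numbers, 0.170 beside -0.0158 between C4 and C7, 0.120 beside -0.0145 between C5 and C7, and 0.0473 beside -0.0236 for N+P C1 and N+P C5. The lowest single pairs were at 0.0788, 0.0429, 0.0809 and 0.0173 in these 4 sets, each above the mean for other numbers. These values do not settle whether a number marks 1 mouse, and the main test had no replicate block. With the replicate block 0 of the 6 genes were called, the smallest adjusted p values being 0.159 (*Klf2*, N+P C5 against N+P C1, -0.62) and 0.174 (*Klf2*, S+P C5 against S+P C4, -1.45), and *Ccr7* in S+P C5 against S+P C4 was at -1.03. The 200 cells per library and the 3 to 6 samples per group limit the precision, and an adjusted p above the threshold does not show that groups were alike.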
